A study of Homo sapiens with 16 samples.

Results

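Collagens are the main structural proteins of the extracellular matrix, and their mRNAs and those of the enzymes that process them were followed in MDA-MB-231 cells, a human triple-negative breast cancer line, with and without the thioredoxin interacting protein TXNIP. The members were taken by symbol. They were the 44 protein-coding genes named COL, a number, A and a number, which encode collagen chains, and 12 genes for prolyl 4-hydroxylases (P4HA1 to P4HA3), lysyl hydroxylases (PLOD1 to PLOD3), lysyl oxidases (LOX and LOXL1 to LOXL4) and the chaperone SERPINH1. All 56 were found among the 60719 genes of the count tables.

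Parental 231 cells are unedited, and 231:TKO cells were derived from them with a CRISPR/Cas9 knockout plasmid against TXNIP and isolated as clones from single cells. Which clone each 231:TKO library came from is not given in the sources used here, so the loss of TXNIP and the choice of a clone cannot be told apart. RNA was sequenced from untreated parental 231 and 231:TKO cells, with 2 replicates each. In a second set, both populations received either a non-targeting siRNA (siNT) or an siRNA against Myc (siMyc) for 48 hours, with 3 replicates per group. The authors call the untreated replicates and those of siRNA-treated 231:TKO biological, and do not say this of siRNA-treated parental 231. Where nothing says that replicates were separate cultures, p-values measure only the spread between these libraries, which may be technical. The knockout was asked about in untreated, siNT-treated and siMyc-treated cells, and Myc knockdown was asked about in each population.

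A collagen molecule is a triple helix of 3 chains, which can be copies of 1 gene's product or come from partner genes, as in type I (COL1A1 and COL1A2), type IV (COL4A1 to COL4A6) and type VI (COL6A1 to COL6A3). In the endoplasmic reticulum, prolyl 4-hydroxylases make the hydroxyproline that stabilizes the helix, lysyl hydroxylases modify lysines that later take part in cross-links, and SERPINH1 (HSP47) binds the folded helix. Outside the cell, lysyl oxidases start the cross-linking. Tumors with much cross-linked collagen are stiff, and LOX, LOXL2, PLOD2 and P4HA1 are known from breast cancer as genes that hypoxia can induce.

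The 16 libraries held between 18953668 and 59799444 counts. Levels are given as CPM, counts scaled to a common library size with TMM factors over all 16 libraries, and 3 counts corresponded to between 0.0526 and 0.149 CPM. TXNIP was at 276 and 277 CPM in untreated parental 231 and at 12.7 and 46.5 in 231:TKO, and at 296 to 315 and 6.70 to 8.06 in the siNT-treated populations. MYC was at 123 to 147 CPM in the siNT libraries of both populations and at 57.9 to 67.3 in the siMyc libraries, so both genes followed the labels in every library. The markers VIM, CD44, AXL and MSN of this mesenchymal-like line summed to between 4550 and 7280 CPM, and 8 fibroblast markers, COL1A1 among them, to between 12.6 and 39.5 CPM, with DCN at 0 in all 231:TKO groups. The luminal markers KRT8, KRT18, KRT19 and 5 others summed to 604 to 717 CPM in the untreated libraries and to 1330 to 3740 in the siRNA libraries. The 2 untreated 231:TKO libraries stood apart from each other (SD of the deviation from the group mean over 13415 genes 0.245 on the log2 scale, against 0.077 in untreated parental 231). Parental 231+siNT replicate 1 and parental 231+siMyc replicate 3 deviated from their groups in the same way (Pearson r of 0.90 over these genes, none of them members). The siRNA-treated parental 231 libraries were counted on Ensembl release 104 and all others on release 102, so that the release cannot be told apart from the knockout in the siRNA libraries.

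In at least 1 group, 35 members reached a mean of 1 CPM, and 19 of these reached 100 CPM. The other 21 stayed under 1 CPM in every group, and COL5A3, COL10A1 and COL6A5 had no count in any library. Per kilobase of the gene model, LOXL2 was the most abundant member in all 6 groups, from 54.5 CPM per kb (45.8 and 63.1 in the libraries of untreated 231:TKO) to 133 (114 to 144 in parental 231+siMyc). Between 31 and 33 members reached 1 CPM in each group. Summed over the 44 chains, the level was 2290 and 2270 CPM in parental 231, 2220 and 1650 in 231:TKO, 1400, 1830 and 1810 in parental 231+siNT, and 2220, 2230 and 2210 in 231:TKO+siNT. It was 2270, 2190 and 1760 CPM in parental 231+siMyc and 2940, 2820 and 2650 in 231:TKO+siMyc. The lowest siNT and the lowest siMyc library of parental 231 were the pair that deviated together. Because these are bulk samples, fewer cells that express a chain and less RNA per cell cannot be told apart for any value below.

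**Figure D1:**
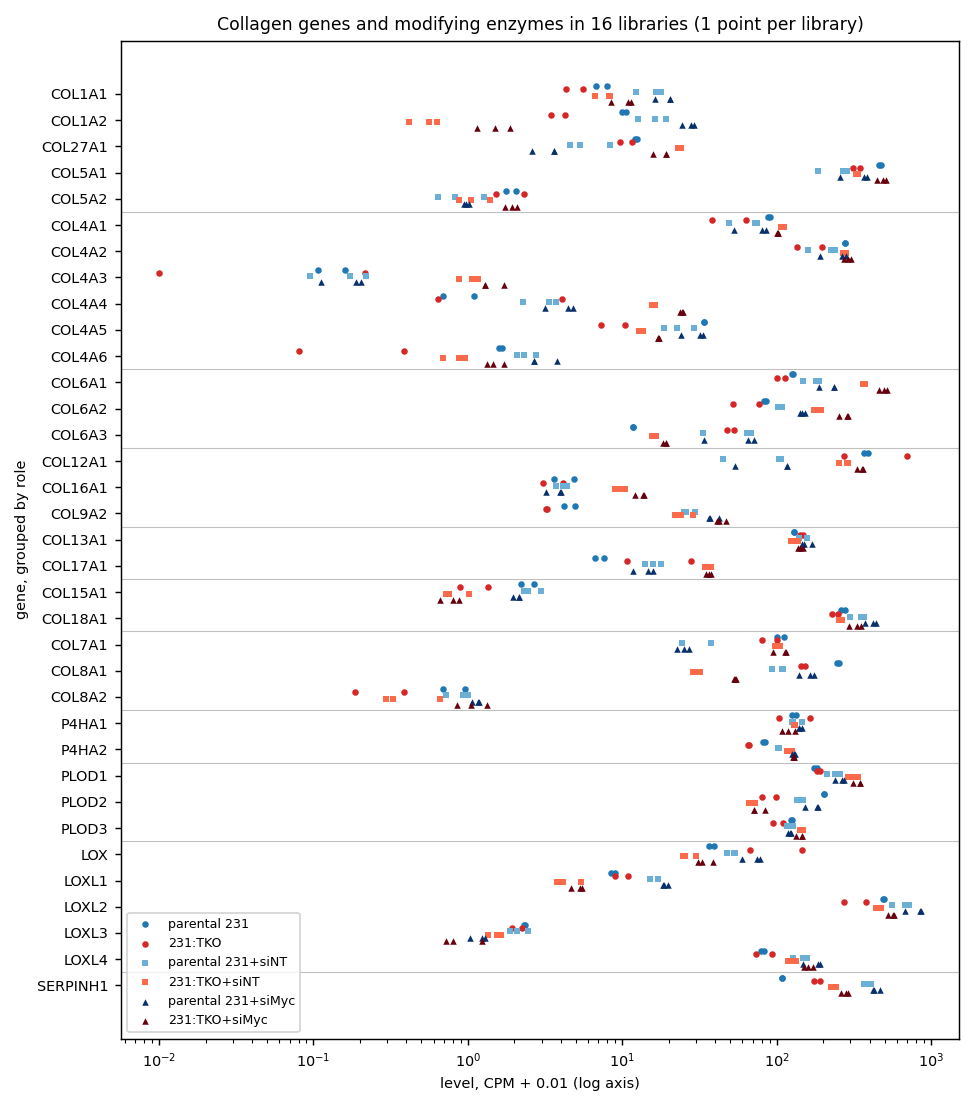
Level of the 35 expressed members in each of the 16 libraries, on a logarithmic axis in CPM + 0.01, with 1 point per library, colors and shapes for the 6 groups and lines between roles. COL1A2 lies between 0.404 and 1.85 CPM in the siRNA-treated 231:TKO libraries and at 12.7 or above in the siRNA-treated parental 231 libraries, while COL13A1 lies between 123 and 169 CPM in every library.

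Sequences of start sites are shown for the members whose genomic arrangement or regulation the results return to. They were taken from RefSeq windows of 300 bases (250 before and 50 after a transcript's first base, build GRCh38.p14), which held 58 windows for 42 of the 56 members. The 6 type IV genes lie as 3 pairs that are transcribed away from each other, COL4A1 and COL4A2 on chromosome 13, COL4A4 and COL4A3 on chromosome 2, and COL4A6 and COL4A5 on chromosome X. The first bases of a pair are 127 bases apart for COL4A1 and COL4A2, 419 for COL4A4 and COL4A3, and 380 for COL4A5 and the nearer start of COL4A6. The sequence between the first starts (chr13:110307158-110307283) and the 250 bases before COL4A3 (chr2:227164374-227164623) and COL4A5 (chrX:108439588-108439837), all on the plus strand, are printed with the CCAAT box (CCAAT) and the GC box (CCGCCC) in capitals where they occur on either strand.
COL4A1 to COL4A2: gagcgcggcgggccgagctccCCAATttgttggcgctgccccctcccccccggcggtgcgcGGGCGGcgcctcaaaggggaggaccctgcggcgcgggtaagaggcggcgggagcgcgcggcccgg
COL4A3: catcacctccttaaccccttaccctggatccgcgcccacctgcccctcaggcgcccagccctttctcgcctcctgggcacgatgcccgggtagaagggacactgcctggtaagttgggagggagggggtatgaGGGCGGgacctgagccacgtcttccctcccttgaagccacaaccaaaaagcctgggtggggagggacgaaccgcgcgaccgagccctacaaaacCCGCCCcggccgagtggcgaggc
COL4A5: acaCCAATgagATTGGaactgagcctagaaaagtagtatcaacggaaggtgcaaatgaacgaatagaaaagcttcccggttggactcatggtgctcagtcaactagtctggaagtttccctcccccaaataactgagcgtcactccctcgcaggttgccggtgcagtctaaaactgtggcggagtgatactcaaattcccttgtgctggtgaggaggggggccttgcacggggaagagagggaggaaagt
The stretch between COL4A1 and COL4A2 held 1 of each box, that before COL4A3 held 2 GC boxes and no CCAAT, and that before COL4A5 held 2 CCAAT and no GC box. CCAAT occurs in 34.6% and CCGCCC in 45.0% of all 35116 windows.

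PLOD2 and LOX are shown for the hypoxia core ACGTG, in capitals on either strand, in the 250 bases before a first base of each (chr3:146161185-146161434 and chr5:122078260-122078509, minus strand, printed in the direction of the transcript). LOX also has windows for starts at 122077174 and 122077223, which are not shown.
PLOD2: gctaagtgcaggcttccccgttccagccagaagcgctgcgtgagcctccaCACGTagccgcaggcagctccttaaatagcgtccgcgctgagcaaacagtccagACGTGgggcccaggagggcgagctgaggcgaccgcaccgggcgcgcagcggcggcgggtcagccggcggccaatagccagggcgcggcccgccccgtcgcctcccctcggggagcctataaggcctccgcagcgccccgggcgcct
LOX: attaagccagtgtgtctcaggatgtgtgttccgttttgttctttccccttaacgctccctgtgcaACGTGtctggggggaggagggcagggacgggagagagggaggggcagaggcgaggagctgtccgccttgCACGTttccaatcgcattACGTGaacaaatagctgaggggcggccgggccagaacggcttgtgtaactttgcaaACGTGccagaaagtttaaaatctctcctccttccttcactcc
The PLOD2 stretch held 2 matches and the LOX stretch 4. ACGTG occurred in 14 of the 58 windows of members (24.1%), from 10 genes, and in 21.4% of all windows. The canonical Myc E-box CACGTG, which contains ACGTG on both strands, occurred in 7.26% of all windows and in 0 of the 58. The 14 members without a window include COL1A1, COL1A2, COL5A2, COL6A1, COL8A1 and LOXL2, so the shares say nothing of their start sites. Windows of COL5A3 and COL10A1, which had no count in any library, are among the 58. A match describes these letters in this window only.

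In untreated cells, 231:TKO and parental 231 differed in 9 of the 41 members that passed the filter of more than 5 counts summed over the 4 libraries. COL6A3 and SERPINH1 were higher in 231:TKO, and COL11A1, COL1A2, COL4A5, COL5A1, COL8A1, PLOD2 and P4HA2 were lower. The test was edgeR's quasi-likelihood fit, and a gene was called at an adjusted p (Benjamini-Hochberg, over all genes tested) no larger than 0.05. Over all 19965 genes 9.61% were called, 5.43% higher and 4.18% lower. Among genes that reached 1 CPM in some group, 13.1% of all and 8 of 35 members were called. The median log2 fold change of the tested members was -0.31, against 0 over all tested genes. With either parental 231 library left out, no member and no gene was called, and without 231:TKO replicate 1 or replicate 2 there were 26 and 25 called members, which included the 9, and 7002 and 6797 called genes in all, against 1919 with every library.

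In siNT-treated cells, 33 of 46 tested members differed between the populations, 15 higher and 18 lower in 231:TKO, while 36.8% of all genes were called, 16.1% higher and 20.7% lower. In siMyc-treated cells 32 of 46 differed, 16 in each direction, against 40.6% of all genes, 18.8% higher and 21.7% lower. Among genes that reached 1 CPM in some group, 50.5% of all and 29 of 35 members were called with siNT, and 54.7% and 27 of 35 with siMyc. Of the members, 30 were called in both (90.9% of the siNT and 93.8% of the siMyc calls), 14 higher in both and 16 lower in both, and none in opposite directions. Over all genes, 7340 were called in both (86.0% and 77.4%), and 7338 of them had the same direction. These comparisons share no library with each other or with the untreated one.

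**Figure D2:**
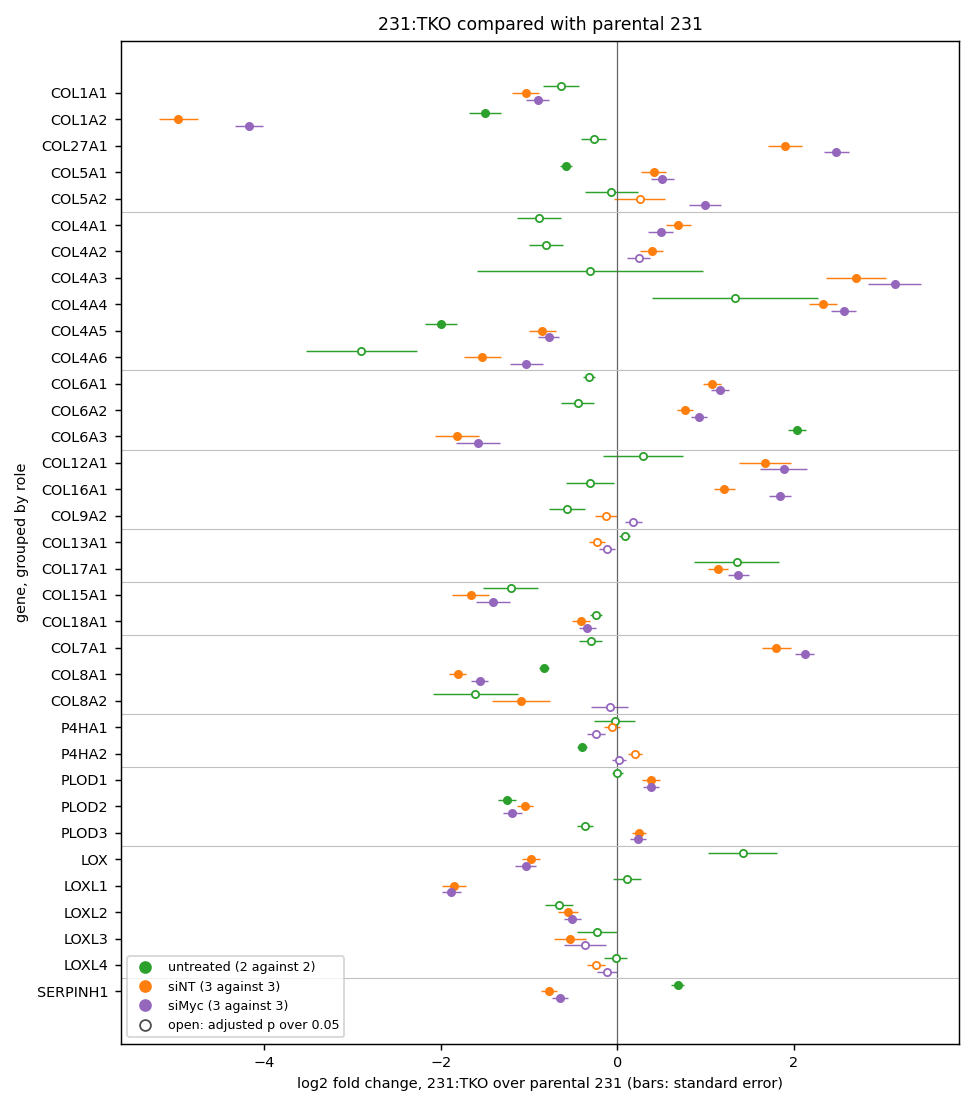
Log2 fold change of 231:TKO over parental 231 for the 35 expressed members in untreated cells (2 against 2 libraries), with siNT and with siMyc (3 against 3 each). Bars are standard errors and open points have an adjusted p over 0.05. COL1A2, COL4A5, COL8A1 and PLOD2 lie left of 0 with filled points in all 3, and COL6A3, SERPINH1 and COL5A1 lie on opposite sides of 0 in untreated and siRNA-treated cells.

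The fibrillar chains held the largest knockout difference. Type I collagen, the main fibril of skin and bone, is usually made of 2 chains of COL1A1 and 1 of COL1A2. COL1A2 (ENSG00000164692, chromosome 7 from 94394895 to 94431227 on GRCh38) was at 10.6 and 9.93 CPM in parental 231 and at 3.42 and 4.24 in 231:TKO, which is a change of -1.50 in log2 units (standard error 0.18, edgeR adjusted p = 0.0141). With siNT it was at 12.7, 16.2 and 19.3 CPM in parental 231 and at 0.546, 0.623 and 0.404 in 231:TKO, a change of -4.97 (0.22, edgeR adjusted p = 2.87e-08). With siMyc it was at 28.9, 27.9 and 24.2 CPM and at 1.85, 1.14 and 1.49, a change of -4.17 (0.16, edgeR adjusted p = 3.93e-10). The populations did not overlap in any of the 3 settings, and the difference was larger with siNT than without treatment (difference of the log2 fold changes, untreated minus siNT, 3.47 with standard error 0.31, edgeR adjusted p = 4.18e-06).

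COL1A1 moved less than its partner. It was at 7.95 and 6.72 CPM in parental 231 and at 4.34 and 5.54 in 231:TKO (log2 fold change -0.64, edgeR adjusted p = 0.126), at 12.2, 16.5 and 17.9 against 8.34, 6.66 and 8.15 with siNT (-1.04, standard error 0.15, edgeR adjusted p = 0.000332), and changed by -0.90 with siMyc (0.13, edgeR adjusted p = 0.000107). Counts per kilobase of COL1A1 were therefore 0.811 to 1.22 times those of COL1A2 in every parental 231 library, 1.53 and 1.57 times in untreated 231:TKO, and 6.79 to 24.2 times in the siRNA-treated 231:TKO libraries. COL1A1 exceeded COL1A2 per kilobase in all 8 libraries of the knockout, and also in every parental 231+siNT library (1.11 to 1.22 times). The ratio was highest in 231:TKO with siNT, where COL1A2 had only 14 to 20 counts per library.

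COL11A1, a chain of the cartilage fibril type XI, was low in parental 231 and nearly without counts in 231:TKO. It had 7 and 8 counts in the untreated parental 231 libraries and 0 in both 231:TKO libraries, which makes it at least 7.10-fold lower when 3 counts are allowed over the 231:TKO group (edgeR adjusted p = 0.041). With siNT it had 14, 14 and 27 counts against 0, 0 and 0, at least 12.9-fold lower (edgeR adjusted p = 0.000852), and with siMyc 26, 17 and 18 against 0, 0 and 1, a ratio of 0.0228 (exact 95% interval 0.000567 to 0.132, counting error only, edgeR adjusted p = 9.12e-05).

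COL5A1, whose type V chains start fibrils, was the most abundant fibrillar chain and changed sides. It was at 460 and 475 CPM in parental 231 and at 346 and 313 in 231:TKO (log2 fold change -0.58, standard error 0.07, edgeR adjusted p = 0.0148). The siNT libraries had it at 184, 267 and 287 CPM in parental 231 and at 338, 334 and 327 in 231:TKO (0.41, 0.14, edgeR adjusted p = 0.0451), and with siMyc it changed by 0.51 (0.13, edgeR adjusted p = 0.00684). The siNT call for COL5A1 was lost in 6 of 16 alternatives, the omission of any 1 of the 231:TKO+siNT libraries among them (adjusted p up to 0.134). Its partner COL5A2, at 0.632 to 2.29 CPM in all libraries, was called with siMyc only (0.99, edgeR adjusted p = 0.000599).

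The long chain COL27A1, of cartilage fibrils, was at 12.5 and 12 CPM in parental 231 and 11.6 and 9.68 in 231:TKO. With siNT it was at 4.57, 8.32 and 5.31 CPM against 22.8, 23.8 and 22.8 (log2 fold change 1.90, standard error 0.19, edgeR adjusted p = 3.56e-05), and with siMyc at 3.58, 3.60 and 2.59 against 19.3, 19.3 and 15.7 (2.48, 0.14, edgeR adjusted p = 2.18e-08). COL24A1 rose between the populations too, from 8, 8 and 7 counts to 36, 28 and 27 with siNT (2.44, 0.31, edgeR adjusted p = 0.000101) and from 5, 3 and 1 to 26, 26 and 45 with siMyc (3.84, 0.43, edgeR adjusted p = 1.33e-05), levels of at most 1.11 CPM. COL3A1 and COL11A2, both under 1 CPM in every library, were not called in any knockout comparison, and COL2A1 did not pass the filter there.

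In the basement membrane, type IV collagen forms the sheet on which epithelia rest, with COL4A1 and COL4A2 in most tissues and the other 4 chains in specialized ones. COL4A1 was at 90.3 and 87.4 CPM in parental 231 and 63.1 and 37.9 in 231:TKO (log2 fold change -0.89, edgeR adjusted p = 0.110), and COL4A2 was at 276 and 276 against 196 and 135 (-0.81, edgeR adjusted p = 0.0722). With siNT both were higher in 231:TKO, at 111, 106 and 108 CPM against 49.3, 72.7 and 75.0 for COL4A1 (0.69, standard error 0.14, edgeR adjusted p = 0.00277), and at 270, 281 and 274 against 160, 223 and 237 for COL4A2 (0.39, 0.13, edgeR adjusted p = 0.0394). With siMyc the values were 0.49 for COL4A1, which was called, and 0.24 for COL4A2, which was not. The siNT call of COL4A2 was lost in 6 of 16 alternatives, the omission of any 1 of the 231:TKO+siNT libraries among them (adjusted p up to 0.26), and the siMyc call of COL4A1 in 5 of 16 (up to 0.098). The genes overlap on opposite strands in the count tables and the counting was by strand.

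COL4A3 and COL4A4, known from the basement membrane of the kidney glomerulus, were higher in siRNA-treated 231:TKO. COL4A4 was at 2.25, 3.72 and 3.32 CPM in parental 231+siNT and at 15.6, 16 and 16.3 in 231:TKO+siNT (log2 fold change 2.33, standard error 0.16, edgeR adjusted p = 1.18e-06), and at 4.75, 4.44 and 3.17 against 24.4, 24.7 and 23.7 with siMyc (2.56, 0.14, edgeR adjusted p = 1.07e-08). COL4A3 was at 0.0843 to 0.209 CPM in the siNT and at 0.102 to 0.193 in the siMyc libraries of parental 231, and at 0.867 to 1.15 and at 1.28 to 1.71 in those of 231:TKO. Its log2 fold changes were 2.70 with siNT (0.34, edgeR adjusted p = 0.00011) and 3.14 with siMyc (0.30, edgeR adjusted p = 2.62e-06). In untreated cells COL4A4 was at 1.09 and 0.681 CPM in parental 231 and at 4.07 and 0.631 in 231:TKO, so 1 knockout library lay above and the other below the parental ones. Both genes have longer models in release 104, on which only the siRNA-treated parental 231 libraries were counted.

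COL4A5 and COL4A6 were lower in 231:TKO. COL4A5 was at 33.6 and 33.7 CPM in parental 231 and 10.4 and 7.26 in 231:TKO (log2 fold change -2.00, standard error 0.18, edgeR adjusted p = 0.00931), at 18.6, 29.0 and 22.5 against 13.7, 13 and 12.9 with siNT (-0.85, 0.15, edgeR adjusted p = 0.000979), and changed by -0.78 with siMyc (0.12, edgeR adjusted p = 0.00022). COL4A6 was at 1.59 and 1.65 CPM in parental 231 and at 0.376 and 0.0701 in 231:TKO (-2.90, edgeR adjusted p = 0.0539). It changed by -1.53 with siNT and -1.03 with siMyc, both called. The knockout difference of COL4A5 was larger without treatment than with siNT by 1.15 on the log2 scale (difference -1.15, standard error 0.24, edgeR adjusted p = 0.00475).

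**Figure D3:**
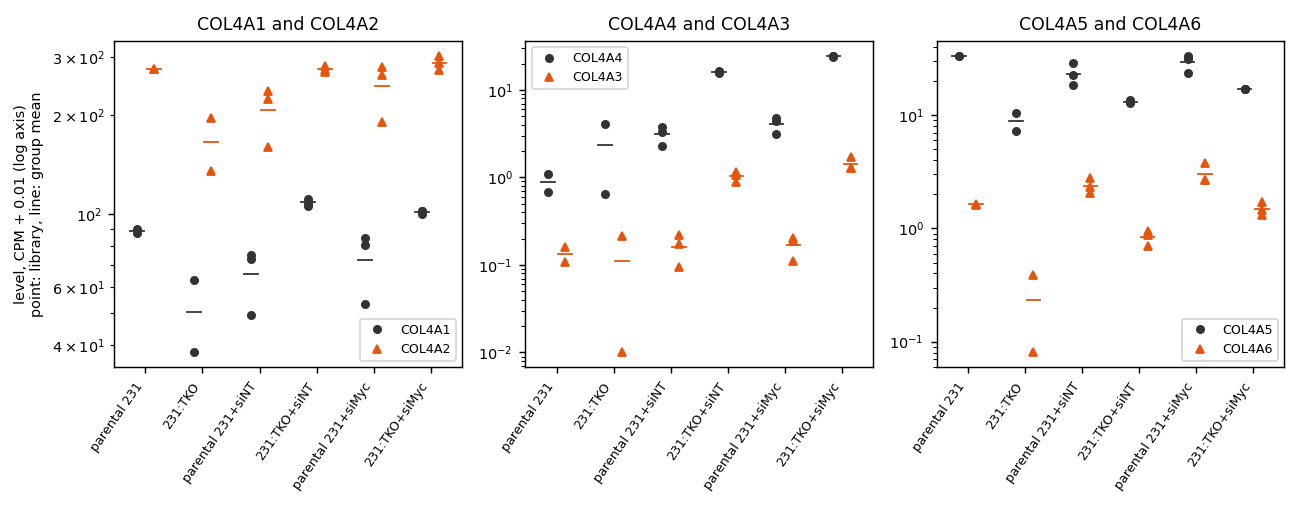
Levels of the 3 pairs of type IV genes, in CPM + 0.01 on logarithmic axes that differ between panels, with 1 point per library and a line at each group mean. COL4A4 and COL4A3 are highest in the siRNA-treated 231:TKO groups, and COL4A5 and COL4A6 are lowest in untreated 231:TKO.

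Type VI collagen, the beaded filament next to cells, is a trimer of COL6A1, COL6A2 and COL6A3, and here COL6A3 went against its partners. COL6A3 was at 11.7 and 11.7 CPM in parental 231 and 47.4 and 52.9 in 231:TKO (log2 fold change 2.03, standard error 0.10, edgeR adjusted p = 0.00306). It was, with siNT, at 33.2, 68.0 and 64.1 CPM in parental 231 and at 15.8, 15.6 and 16.5 in 231:TKO (-1.82, 0.25, edgeR adjusted p = 0.000657), and with siMyc it changed by -1.58 (0.25, edgeR adjusted p = 0.00113). The untreated and siNT effects of COL6A3 differed by 3.84 (0.36, edgeR adjusted p = 9.2e-05). COL6A1 was at 128 and 126 CPM in parental 231 and 113 and 101 in 231:TKO (-0.32, edgeR adjusted p = 0.0597), and at 148, 179 and 189 against 373, 364 and 365 with siNT (1.07, 0.10, edgeR adjusted p = 1.46e-05). COL6A2 was at 83.0 and 85.2 against 76.8 and 52.4 CPM in untreated cells (-0.45, edgeR adjusted p = 0.231), and at 102, 108 and 108 against 175, 194 and 179 with siNT (0.76, 0.09, edgeR adjusted p = 4.57e-05). With siMyc the changes were 1.16 for COL6A1 and 0.92 for COL6A2, both called.

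The ratio of type VI chains followed. Per kilobase, COL6A1 exceeded COL6A3 39.9 and 39.5 times in parental 231 and 8.73 and 7.01 times in 231:TKO, but 10.3 to 17.3 times in parental 231+siNT and 81.3 to 86.5 times in 231:TKO+siNT. COL6A1 stayed at 1.30 to 2.14 times COL6A2 in all 16 libraries. COL6A1 and COL6A2 lie near each other on chromosome 21 and COL6A3 lies on chromosome 2.

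Among the chains that sit on fibrils, the FACIT collagens, COL12A1 was the most abundant. It was at 387 and 370 CPM in parental 231 and 701 and 273 in 231:TKO, on both sides of the parental libraries (log2 fold change 0.29, edgeR adjusted p = 0.752). With siNT it was at 44.7, 106 and 104 CPM in parental 231 and at 284, 254 and 288 in 231:TKO (1.67, standard error 0.29, edgeR adjusted p = 0.0024), and with siMyc at 117, 116 and 53.8 against 363, 330 and 354 (1.88, 0.27, edgeR adjusted p = 0.000841). Its gene model is 12483 bases in release 102 and 18860 in release 104, and with offsets for model length and all other alternatives it stayed called in both siRNA comparisons, with values from 1.34 to 2.47. COL16A1 was at 3.04 to 4.87 CPM in the untreated libraries and was higher in 231:TKO with siNT, at 9.66, 10.4 and 8.93 CPM against 4.38, 4.15 and 3.72 (1.21, 0.12, edgeR adjusted p = 2.04e-05), and with siMyc (1.84, 0.12, edgeR adjusted p = 1.08e-07). COL9A2 was at 3.21 to 4.92 CPM in the untreated and 21.8 to 46.8 in the siRNA libraries, and was not called in any knockout comparison. COL21A1 was lower with siNT (-1.75) and siMyc (-2.04), with 2, 3 and 2 counts against 8, 13 and 13 with siNT and 1, 2 and 5 against 16, 14 and 17 with siMyc. COL20A1 was called with siMyc, on 8, 7 and 3 counts against 0, 2 and 1. The COL21A1 call with siNT was lost in 7 of 15 alternatives (adjusted p up to 0.0848) and the COL20A1 call in 4 of 15 (up to 0.0792). COL9A3 stayed at or under 1.01 CPM and was not called.

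COL7A1, the anchoring fibril of the skin, was at 101 and 111 CPM in parental 231 and 80.0 and 101 in 231:TKO. Under siNT it stood at 24.2, 37.6 and 24.3 CPM in parental 231 and 105, 103 and 97.9 in 231:TKO (log2 fold change 1.80, standard error 0.16, edgeR adjusted p = 1.38e-05), and with siMyc at 27.0, 25.2 and 22.5 against 115, 113 and 94.0 (2.12, 0.11, edgeR adjusted p = 9.29e-09). The network-forming chain COL8A1 was lower throughout, at 253 and 246 CPM against 153 and 144 in untreated cells (-0.83, 0.06, edgeR adjusted p = 0.00588), at 92.6, 109 and 108 against 28.6, 31.6 and 29.8 with siNT (-1.81, 0.10, edgeR adjusted p = 1.83e-07), and at 173, 163 and 140 against 52.7, 53.5 and 54.7 with siMyc (-1.56, 0.10, edgeR adjusted p = 6.59e-08). Its partner COL8A2, at 0.175 to 1.31 CPM, was called lower with siNT only (-1.09), a call that 4 of 16 alternatives removed (adjusted p up to 0.107). The membrane chain COL17A1, of hemidesmosomes, was at 6.66 and 7.64 CPM in parental 231 and 27.7 and 10.7 in 231:TKO (1.35, edgeR adjusted p = 0.178), and higher with siNT (1.14) and siMyc (1.37). COL13A1, another membrane chain, kept between 123 and 169 CPM in all libraries and was not called. The multiplexins were lower in the siRNA libraries of 231:TKO. COL15A1 changed by -1.66 with siNT and -1.41 with siMyc, and COL18A1, the source of endostatin, by -0.41 and -0.34. Their levels in siRNA-treated parental 231 were 1.96 to 2.97 and 299 to 439 CPM. The COL18A1 call with siMyc was lost in 6 of 16 alternatives (adjusted p up to 0.0754).

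PLOD2, the lysyl hydroxylase of the telopeptides at the chain ends, was the only enzyme among the members that was called lower in all 3 knockout comparisons. It was at 202 and 201 CPM in parental 231 and 98.5 and 80.6 in 231:TKO (log2 fold change -1.25, standard error 0.10, edgeR adjusted p = 0.00753). With siNT it was at 135, 149 and 140 CPM against 71.1, 66.3 and 71.8 (-1.05, 0.09, edgeR adjusted p = 4.37e-06), and with siMyc at 181, 184 and 153 against 71.1, 71.0 and 83.4 (-1.19, 0.11, edgeR adjusted p = 1.7e-06). The untreated minus the siNT effect was -0.19 (0.15, edgeR adjusted p = 0.451). Its relatives differed from it: PLOD1, at 175 to 347 CPM in all libraries, was higher in 231:TKO with siNT (0.38, not called without 231:TKO+siNT replicate 2, adjusted p = 0.0694) and siMyc (0.38), and PLOD3, at 94.1 to 149 CPM, was 0.24 and 0.23 higher, calls that 9 and 8 of 16 alternatives removed. Of the prolyl 4-hydroxylases, P4HA1 was at 104 to 163 CPM in all libraries and was not called, and P4HA2 was lower in untreated 231:TKO, at 65.7 and 65.6 CPM against 83.8 and 81.1 (-0.40, 0.06, edgeR adjusted p = 0.0241), but not with siNT (0.20, edgeR adjusted p = 0.0726) or siMyc (0.02). P4HA3 had 11, 3 and 6 counts against 32, 30 and 32 with siNT (-1.74) and 2, 7 and 4 against 32, 33 and 39 with siMyc (-2.50, 0.40, edgeR adjusted p = 0.000238).

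Among the lysyl oxidases, 4 of 5 were called lower in 231:TKO with siNT and 3 of 5 with siMyc. Of all genes of at least 1 CPM in some group, 28.1% were called lower with siNT and 29.3% with siMyc. LOX, the founding member, was at 36.2 and 39.4 CPM in parental 231 and at 67.2 and 145 in 231:TKO, above both but far apart (log2 fold change 1.42, edgeR adjusted p = 0.105). In the siNT libraries it was at 47.9, 52.5 and 54.0 CPM in parental 231 and 25.4, 29.8 and 24.7 in 231:TKO (-0.98, standard error 0.10, edgeR adjusted p = 3.15e-05), and with siMyc it changed by -1.04 (0.12, edgeR adjusted p = 1.9e-05). LOXL1, which acts on elastin fibers, was at 8.47 to 10.8 CPM in all untreated libraries, at 15, 15.1 and 16.9 against 3.77, 5.42 and 4.13 with siNT (-1.85, 0.14, edgeR adjusted p = 2.54e-06), and changed by -1.88 with siMyc. LOXL2 was at 493 and 488 CPM against 378 and 274 in untreated cells (-0.66, edgeR adjusted p = 0.0784), at 560, 680 and 721 against 437, 474 and 448 with siNT (-0.56, 0.11, edgeR adjusted p = 0.00169), and changed by -0.51 with siMyc (0.10, edgeR adjusted p = 0.00124). LOXL3 was called lower with siNT only (-0.54), at 1.33 to 1.64 CPM against 1.87 to 2.44, a call that 9 of 16 alternatives removed (adjusted p up to 0.156), and LOXL4, at 72.9 to 191 CPM in all libraries, was not called.

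The collagen chaperone SERPINH1 changed sides like COL6A3. It was at 108 and 108 CPM in parental 231 and 175 and 190 in 231:TKO (log2 fold change 0.68, standard error 0.07, edgeR adjusted p = 0.0106). With siNT it was at 407, 367 and 392 CPM against 229, 242 and 224 (-0.77, 0.09, edgeR adjusted p = 4.09e-05), and with siMyc it changed by -0.65 (0.09, edgeR adjusted p = 6.35e-05). The populations did not overlap in any setting.

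Of the 9 members called in untreated cells, 8 were also called with siNT, 5 in the same direction and 3 in the opposite one. COL11A1, COL1A2, COL4A5, COL8A1 and PLOD2 were lower in both, and COL5A1, COL6A3 and SERPINH1 changed sides. Over all genes called in both comparisons, 1085 in number, 75.1% had the same direction. The same 5 and 3 members were found between the untreated and the siMyc comparison, where 71.8% of 1169 genes had the same sign. A test of the difference of the knockout effect, untreated minus siNT, called 17 of 48 members, 6 higher and 11 lower, and 14.1% of all genes, 7.91% higher and 6.20% lower. Among genes of at least 1 CPM in some group it called 17 of 35 members and 23.4% of all. The untreated libraries were single reads and the siRNA libraries read pairs, so that read layout and siNT treatment cannot be told apart here. Of the groups in this test, only parental 231+siNT was counted on release 104. The release can therefore not be told apart from the difference either.

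siMyc in 231:TKO raised more collagen genes than it lowered. Of 45 tested members, 20 rose and 3 fell, while 13.3% of all genes rose and 13.9% fell, 27.2% in all. Among genes of at least 1 CPM in some group, 41.0% of all and 22 of 35 members were called. The median log2 fold change of the members was 0.30, against 0.01 over all tested genes. By role, 16 of 33 chains rose and 2 fell, all 3 tested type VI chains rose, 3 of 5 lysyl oxidases rose and 1 fell, and the prolyl and lysyl hydroxylases, with log2 fold changes from -0.74 to 0.11, were not called by edgeR and had 0 at an unadjusted p under 0.05. Markers of other cell types rose in the same libraries. Of the fibroblast markers 3 of 6 tested rose, COL1A1 among them, and none fell, and their sum went from between 24.2 and 25.6 CPM to between 29.9 and 35, with DCN and THY1 at 0. Of the luminal markers 2 of 7 rose (sums of 1330 to 1440 and 1530 to 1790 CPM), and CD14 of the leukocyte and KDR of the endothelial list rose by 0.92 and 0.88 on the log2 scale. Their part in the rise of the members was not tested.

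COL1A2 rose most, from 0.546, 0.623 and 0.404 CPM to 1.85, 1.14 and 1.49 (log2 fold change 1.51, standard error 0.25, edgeR adjusted p = 8.25e-05). COL8A2 rose from 0.287, 0.654 and 0.318 CPM to 1.31, 1.03 and 0.842 (1.34, 0.30, edgeR adjusted p = 0.00186), and its partner COL8A1 from 28.6, 31.6 and 29.8 to 52.7, 53.5 and 54.7 (0.84, 0.06, edgeR adjusted p = 1.9e-09). COL4A6 rose from 0.949, 0.685 and 0.867 CPM to 1.71, 1.31 and 1.44 (0.82, 0.21, edgeR adjusted p = 0.00479) and COL9A2, a cartilage FACIT chain, from 24.1, 28.7 and 21.8 to 46.8, 42.5 and 41.0 (0.81, 0.08, edgeR adjusted p = 1.75e-07). COL1A1, the partner of COL1A2, rose by 0.39 (0.11, edgeR adjusted p = 0.0109), a call lost in 5 of 14 alternatives, among them the omission of 231:TKO+siNT replicate 2 or 231:TKO+siMyc replicate 2 (adjusted p up to 0.0999). COL5A2 rose from 1.03, 0.872 and 1.39 CPM to 1.93, 2.07 and 1.73 (0.79, 0.19, edgeR adjusted p = 0.00346) and COL5A1 from 338, 334 and 327 to 507, 484 and 448 (0.53, 0.05, edgeR adjusted p = 6.45e-08). COL4A4 rose from 15.6, 16 and 16.3 CPM to 24.4, 24.7 and 23.7 (0.60, 0.07, edgeR adjusted p = 6.91e-07) and COL6A2 from 175, 194 and 179 to 289, 286 and 254 (0.60, 0.06, edgeR adjusted p = 6.17e-08). In none of these did the siNT and siMyc libraries overlap.

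The other members that rose had log2 fold changes of 0.45 (COL16A1), 0.42 (COL6A1), 0.38 (COL4A5), 0.37 (LOXL4), 0.36 (LOX), 0.34 (COL12A1), 0.33 (COL18A1), 0.30 (LOXL2), 0.26 (SERPINH1) and 0.24 (COL6A3). Those that fell were COL11A2, from 0.834, 0.996 and 0.780 CPM to 0.654, 0.517 and 0.396 (-0.74, standard error 0.27, edgeR adjusted p = 0.0465), LOXL3, from 1.64, 1.53 and 1.33 to 1.22, 0.707 and 0.792 (-0.73, 0.22, edgeR adjusted p = 0.0157), and COL27A1 (-0.36, 0.08, edgeR adjusted p = 0.00156). The COL11A2 call was lost in 9 of 14 alternatives (adjusted p of 0.0309 to 0.16), the LOXL3 call in 4 of 14, without 231:TKO+siNT replicate 1 or 231:TKO+siMyc replicate 2 among them (up to 0.0908), and the COL6A3 call in 4 of 14, without 231:TKO+siMyc replicate 2 among them. In 1 fit of the 12 siRNA libraries, COL6A3 (adjusted p = 0.709), COL12A1 (0.63), COL27A1 (0.304), COL4A5 (0.0982) and LOXL2 (0.0542) were not called either, nor were COL1A1 (0.0999) and LOXL3 (0.059). The main type IV pair, COL4A1 (-0.09) and COL4A2 (0.07), was not called.

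In parental 231, siMyc gave no called member among 47 tested by edgeR's quasi-likelihood test, and 0.594% of all genes were called. At an unadjusted p under 0.05 there were 15 members (10 higher and 5 lower) and 14.6% of all genes, and DESeq2 called 8 members, 6 higher and 2 lower, and 1110 genes in all. In both libraries of the pair that deviated together, 18 of the 35 expressed members lay at least 0.2 log2 units below the other libraries of their group and 1, COL9A2, above, while 26.2% of the other genes above 1 CPM lay below and 17.2% above. The median deviation of the members was -0.24 and -0.22, against -0.03 for the other genes in both. COL12A1 lay lowest, by -1.22 in the siNT and -1.11 in the siMyc library. It was followed by COL6A3 (-0.98 and -1), COL4A1 (-0.58 and -0.63), COL5A1 (-0.59 and -0.56) and COL4A2 (-0.52 and -0.51). MYC in this pair was at 123 and 67.3 CPM, with the other libraries of its groups at 125 and 129 and at 64.8 and 64.9.

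**Figure D4:**
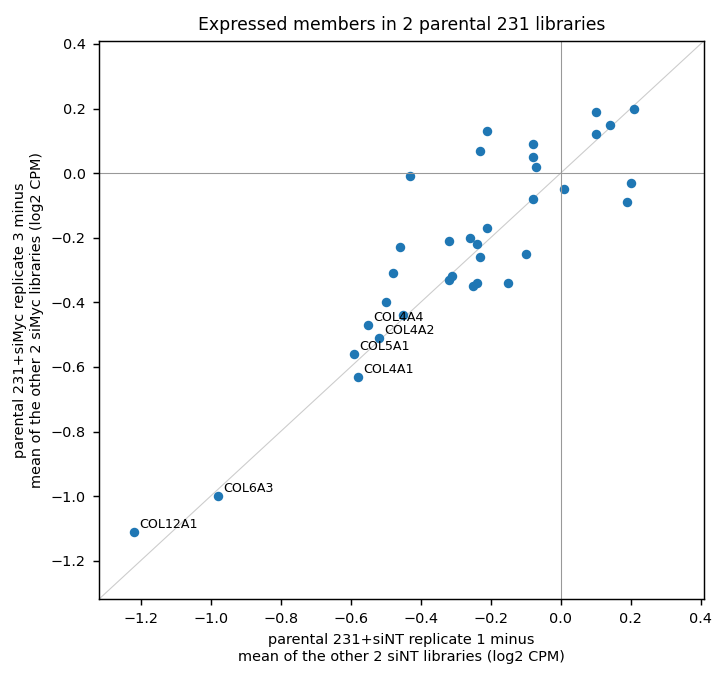
Deviation of the 35 expressed members in parental 231+siNT replicate 1 (horizontal) and parental 231+siMyc replicate 3 (vertical) from the mean of the other 2 libraries of the same group, in log2 CPM, with a gray line of equal values. COL12A1 and COL6A3 lie near -1 on both axes, and most points lie below 0 on both.

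With a factor for this pair, an alternative added after the data had been seen, siMyc raised 21 and lowered 3 of the 47 members in parental 231, while 26.8% of all genes were called, 13.7% higher and 13.1% lower. Among genes of at least 1 CPM, 42.5% of all and 24 of 35 members were called. With the pair left out, 13 of 44 members rose and 2 fell, against 20.8% of all genes, 9.94% higher and 10.9% lower, and 31.8% of those of at least 1 CPM. The factor marks 1 library in each group, so by design it could hardly move the fold changes. COL1A2 had 0.72 without and 0.73 with it (standard errors 0.16 and 0.07), COL8A1 0.60 and 0.60 (0.11 and 0.04), and COL6A2 0.45 and 0.45 (0.09 and 0.04). With the pair left out, the values of these genes were 0.64, 0.60 and 0.44. COL5A2, not called in either fit, had 0.08 with the factor and -0.14 with the pair left out. In the single libraries, COL8A1 was at 92.6, 109 and 108 CPM with siNT and 173, 163 and 140 with siMyc in parental 231, and COL1A2 at 12.7, 16.2 and 19.3 and at 28.9, 27.9 and 24.2. Neither gene's siNT and siMyc libraries overlapped. LOX rose by 0.42 and PLOD2, not called in 231:TKO, by 0.26 with the factor, and COL27A1 and LOXL3 fell by 0.92 and by 0.88 on the log2 scale.

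The responses of the populations, which share no library, were compared for direction. Of the 44 members tested in both, 23 were called in 231:TKO and 24 in parental 231 with the factor. The 17 called in both, 73.9% of the first and 70.8% of the second, all had the same direction, 15 higher and 2 lower. Over all genes these shares were 72.5% and 70.0%, and 4409 of the 4414 genes called in both had the same direction. The members higher in both were COL12A1, COL18A1, COL1A1, COL1A2, COL4A4, COL4A5, COL5A1, COL6A1, COL6A2, COL8A1, COL9A2, LOX, LOXL2, LOXL4 and SERPINH1, and those lower in both were COL27A1 and LOXL3. With the pair left out instead of the factor, 12 members were called in both, 10 higher and 2 lower. They were 52.2% of the 231:TKO and 80% of the parental 231 calls, against 60.4% and 79.1% over all genes. COL12A1, COL1A1, COL4A4, COL4A5 and SERPINH1 were then not called in parental 231. Members called in 1 population could differ in sign in the other, as COL16A1 did (0.45 in 231:TKO, called, and -0.16 in parental 231) and COL4A1 (-0.09 in 231:TKO, and 0.12 in parental 231, called with the factor). A difference between the responses was not shown for any of 48 members: the interaction test over the 12 siRNA libraries called 0 members and 0% of all genes by edgeR and 0 members by DESeq2, with 8 members and 4.03% of all genes at an unadjusted p under 0.05. With the factor it called 1 member, COL16A1, whose response was 0.65 log2 units higher in 231:TKO (standard error 0.14, edgeR adjusted p = 0.00919), and 0.57% of all genes. With the pair left out instead, COL16A1 was not called (0.60, edgeR adjusted p = 0.136), and the test called 0 members and 63 genes. COL16A1 was at 3.21 to 4.38 CPM in the siRNA libraries of parental 231 and rose from 9.66, 10.4 and 8.93 to 13.7, 13.9 and 12 in 231:TKO.

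**Figure D5:**
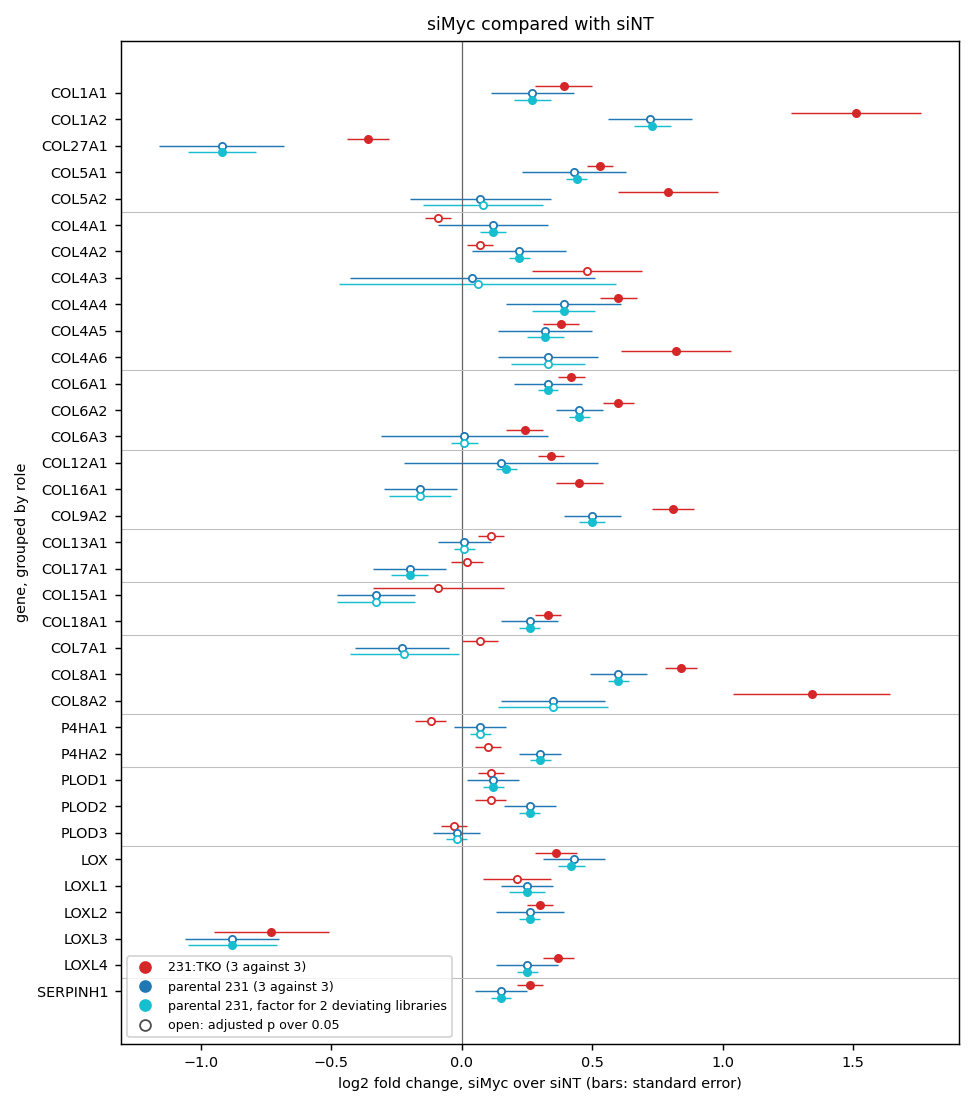
Log2 fold change of siMyc over siNT for the 35 expressed members in 231:TKO, in parental 231, and in parental 231 with a factor for the 2 deviating libraries. Bars are standard errors and open points have an adjusted p over 0.05. Most points lie right of 0 in both populations, and the factor shortens the bars of parental 231 without moving most points.

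Other genes of the collagen pathway were described from lists of 8 to 12 genes each. The HIF-1 targets other than members, which serve oxygen sensing and glycolysis, were lower in 4 of 10 in untreated 231:TKO with none higher, in 7 of 10 with siNT and in 8 of 10 with siMyc, with 2 higher in each of the siRNA comparisons. Among all genes of at least 1 CPM in some group, 5.51% were called lower untreated, 28.1% with siNT and 29.3% with siMyc. ADM, a vasodilator peptide, fell most in untreated cells (log2 fold change -1.46, edgeR adjusted p = 0.0146), and CA9, a carbonic anhydrase, most with siNT (-5.51, edgeR adjusted p = 1.99e-07), at 2 to 4 counts per library against 167 to 238. PDK1, a kinase of pyruvate dehydrogenase, was higher by 0.73 with siNT. Among the hypoxia-inducible members, PLOD2 was called lower in all 3 comparisons and LOX and LOXL2 in both siRNA comparisons, while P4HA1 was called in none and LOX was above parental 231 in both untreated 231:TKO libraries (1.42, not called). The part of the HIF-1 targets in those results was not tested.

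For the lists that follow, the shares of all genes of at least 1 CPM in some group were 7.57% called higher and 5.51% lower in untreated 231:TKO, 22.3% and 28.1% with siNT, and 25.4% and 29.3% with siMyc. With siNT, 7 of 12 genes for folding, 5 of 10 for cleavage, 6 of 10 for degradation and 4 of 9 receptors were called, near the 50.5% of all such genes. Genes for folding and modification in the endoplasmic reticulum were called higher in 4 and lower in 3 of 12 with siNT, led by P3H3 (1.28) and COLGALT2 (-2.12), and lower in 2 of 11 tested in untreated cells, where P3H3, a prolyl 3-hydroxylase, went the other way (-2.35, edgeR adjusted p = 0.0339). Of 8 genes for export of procollagen, 3 were higher and none lower in each knockout comparison, with MIA2 leading in all (0.85 untreated, 0.67 with siNT, 0.82 with siMyc). Of 10 genes for cleavage of procollagen, 4 were lower and 1 higher in both siRNA comparisons, and BMP1, the C-proteinase that also activates LOX, was lower in all 3 knockout comparisons (-0.45, -0.76 and -0.72), while PCOLCE2, an enhancer of that cleavage, was higher (1.25, 0.76 and 1.22). With siMyc, BMP1 rose by 0.40 and PCOLCE2 changed by -0.62 in 231:TKO.

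Of 10 genes for degradation of collagen, 3 were higher and 3 lower with siNT. The membrane protease MMP16 led those that were higher (log2 fold change 3.24, edgeR adjusted p = 1.53e-06) and the collagenase MMP13 those that were lower, with 0 or 1 count in each 231:TKO+siNT library against 9 to 16 in parental 231+siNT (edgeR adjusted p = 0.00229), and MMP14, a membrane collagenase, changed sides (0.63 untreated and -0.39 with siNT, edgeR adjusted p = 0.0176 and 0.00599). Of 9 collagen receptors, 2 were higher and 2 lower in each siRNA comparison, led with siNT by LAIR1 (4.23), an inhibitory receptor of leukocytes, and the integrin chain ITGA10 (-3.45). Of 10 partners in fibril formation, 5 of 8 tested rose with siMyc in 231:TKO and none fell, where 19.9% of all genes of at least 1 CPM rose and 21.1% fell, led by SPARC (0.79, edgeR adjusted p = 0.0159), and fibronectin, FN1, rose by 0.71 (edgeR adjusted p = 3.18e-10).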

How the data were processed

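RNA of 16 MDA-MB-231 libraries was sequenced by the authors. STAR placed the reads on GRCh38, and featureCounts 1.6.3 gave strand-specific totals per gene, with each read assigned to the gene of largest overlap, on Ensembl release 102, or 104 for siRNA-treated parental 231. The deposited values are raw counts, with no normalization. Untreated libraries were single reads and siRNA libraries read pairs. Symbols from a gene table matched 58705 of 60719 gene IDs (96.7%). CPM used TMM scaling (edgeR 4.0.16, R 4.3.3).

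Each comparison was fitted on its own libraries with edgeR's robust quasi-likelihood test, for genes with more than 5 counts summed, with Benjamini-Hochberg adjustment over all genes tested and a threshold of 0.05. Interactions used all libraries of their 4 groups. The main fit of each comparison was first tested on simulated data, and the alternative fits were not. Alternatives were DESeq2 1.42.0, its size factors, other filters and thresholds, a replicate block, joint fits, offsets for gene length or 20-Mb regional shifts, and omission of each library. A factor for 2 deviating parental libraries, and their omission, were added after seeing the data. All members of at least 1 CPM in a group were named, called members whose replicates did not overlap got per-library values, at most 10 a comparison by size, and pathway lists gave their largest called rise and fall. MMP14, BMP1 and FN1, and called members outside these 10 given per-library values, were chosen after their values were seen. The members and lists were chosen with earlier results of these data known. Intervals and floors of 3 counts cover counting error only. Promoter windows were RefSeq, GRCh38.p14. PECAM1 found no match in the gene table and was left out of the markers.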

Additional observations from a re-analysis of the deposited data

Results flagged for a closer look

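The effect of the knockout differed between untreated and siNT-treated cells for 17 members by a test of the difference itself, edgeR's quasi-likelihood interaction over 10 libraries, with each value the untreated minus the siNT log2 fold change. The signed log2 fold change was higher without treatment for COL6A3 (3.84), COL1A2 (3.47), LOX (2.40), LOXL1 (1.96), SERPINH1 (1.46) and COL8A1 (0.99). It was lower without treatment for COL27A1 (-2.17), COL7A1 (-2.10), COL4A1 (-1.58), COL16A1 (-1.53), COL6A1 (-1.38), COL6A2 (-1.21), COL4A2 (-1.20), COL4A5 (-1.15), COL5A1 (-0.98), PLOD3 (-0.61) and P4HA2 (-0.60). COL1A2, COL8A1 and COL4A5 were called lower in 231:TKO in both settings. Without treatment the fall was smaller for COL1A2 and COL8A1 and larger for COL4A5. The adjusted p-values ran from 4.18e-06 for COL1A2 to 0.00814 for PLOD3, and PLOD3 lost its call without parental 231 replicate 1 (adjusted p = 0.0543). Read layout differed between the untreated and the siRNA libraries and cannot be told apart from the treatment. Only parental 231+siNT was counted on Ensembl release 104 and the other groups on 102, which cannot be told apart from the difference either. Of the called members, COL6A1, COL6A3, COL7A1 and P4HA2 have gene models of other lengths in release 104. Offsets for gene length were not tried for this test.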

How the results depend on the processing

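No result changed direction under any alternative. Of the 9 members called in untreated cells, DESeq2 called 8 among 15 and an adjusted p of at most 0.01 left 4. Leaving out 1 library gave between 0 and 26, with 0 members and 0 genes called without either parental 231 library. siMyc in 231:TKO had 23 called members, 11 when a log2 change of 0.5 or more was required, 15 in 1 fit of the 12 siRNA libraries, and 19 to 26 with 1 library left out. siMyc in parental 231 had 0, but 8 with DESeq2, 8 in the 12-library fit, 3 without the filter on low counts, 24 with the factor for the deviating pair, 15 with that pair left out, and 0 to 0 with 1 library left out. The interaction of the siMyc responses had 0, 1 with the factor, 0 with the pair left out, and 0 with 1 library left out. With 1 library left out, the knockout had 27 to 36 called members with siNT (33 with all) and 29 to 36 with siMyc (32 with all), and its difference between untreated and siNT had 16 to 23 (17 with all). Offsets for gene length gave 34 with siNT and 32 with siMyc. The cause of these shifts was not tested. With a replicate block the counts were 7 untreated, 24 and 0 for siMyc in 231:TKO and parental 231, 31 for the knockout with siNT and with siMyc, and 0 and 17 for the interactions. P4HA2 and COL11A1 lost the untreated call under the block (adjusted p = 0.0713 and 0.102). Correlations of the deviations ran from -0.81 to 0.63 between same-numbered libraries and from -0.81 to 0.90 between others. Whether replicate numbers pair samples cannot be read from them, since the parental 231 values include the pair that deviated together. Members under 1 CPM rest on few counts.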
